A study of Mus musculus with 6 samples.

Results

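Genes linked to dendritic cells were read in F4/80+ CD11b+ macrophages of the mouse peritoneal cavity. The set holds 10 genes, taken by symbol from a table of 48709 genes: Batf3, Irf4, Zbtb46, Flt3, Ccr7, Cd209a, Plbd1, Napsa, Dpp4 and Kmo. RNA came from 3 libraries of mice heterozygous for Zeb1, written Zeb1 (+/-), and 3 libraries of wild-type mice. Zeb1 codes for a transcription factor with zinc fingers, known to bind E-boxes. Both genotypes were C57BL/6 mice aged 6 to 8 weeks that had received no treatment, and each library held cells pooled from 2 mice. The labels do not say how the Zeb1 allele was made or in which cells it is altered. The comparison asks which of these transcripts differ in level between Zeb1 (+/-) and wild-type macrophages.

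Dendritic cells take up antigen, present it on MHC molecules and carry it to lymph nodes. They arise from bone marrow precursors under FLT3 ligand, and conventional dendritic cells divide into type 1, which depends on BATF3 in the mouse, and type 2, many of which depend on IRF4. In the peritoneal cavity a small population of monocyte-derived macrophages shares genes with dendritic cells, among them Irf4 and the MHC class II genes, while the resident large macrophages make up most F4/80+ cells. A transcript of this set in sorted cells can therefore come from either kind of cell.

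The libraries held 17859872 to 42165006 counts, so that 1 CPM (counts scaled to library size with TMM factors) stood for 17.9 to 42.4 counts. Zeb1 itself was at 3.85, 3.45 and 3.62 CPM in Zeb1 (+/-) libraries and at 5.44, 7.56 and 7.22 CPM in wild-type libraries. The groups did not overlap, and the log2 fold change was −0.89 ± 0.16 (SE; edgeR adjusted p = 0.0522). The genes of the sorted proteins were abundant in Zeb1 (+/-) and wild-type libraries. Adgre1 (F4/80) was at means of 2617 and 2185 CPM and Itgam (CD11b) at 5058 and 4846 CPM, in that order. However, 66.3% of the 50-base stretches of Itgam also occur in Gm49368. The gene table holds another entry with the symbol Itgam, 77.1% of whose stretches are shared. The Itgam values here are those of the entry with more counts. Small structural RNA set 2 wild-type libraries apart: it summed to 43.6 to 45.5 CPM in the Zeb1 (+/-) libraries, to 42.2 CPM in wild-type replicate 3, but to 4.14 CPM in replicate 1 and 8.69 CPM in replicate 2 of that genotype. A fit with a term for this split rests on wild-type replicate 3 alone against the 3 Zeb1 (+/-) libraries, and its values are given for each call it ends and for Batf3, Irf4, Zbtb46 and Flt3.

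Of the 10 genes, 1 fell and none rose in Zeb1 (+/-) macrophages by the edgeR quasi-likelihood test at an adjusted p of 0.05, where 0.587% of the 12940 genes tested changed, 0.433% lower and 0.155% higher. The gene that fell was Plbd1. All 10 passed the filter on low counts. The log2 fold change (Zeb1 (+/-) relative to wild-type) lay below 0 for 9 of the 10 genes, as it did for 50.1% of all tested genes, and above 0 for Cd209a. Its median was −0.38 over the set and −0.00039 over all tested genes. An unadjusted p under 0.05 was found for 6 of the 10 and for 14.6% of all tested genes. Groups that did not overlap, with every Zeb1 (+/-) library below every wild-type library, were found for 2 of the 10, Plbd1 and Batf3, and for 10.3% of all tested genes. None of the 10 had every Zeb1 (+/-) library above, against 9.6% of all tested genes, and groups lay apart in either direction for 19.9%. The 10 genes were chosen with earlier results of these data known, so their counts beside all tested genes are not independent evidence. In these sorted bulk samples fewer cells of a type and less RNA per cell cannot be told apart.

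**Figure D1:**
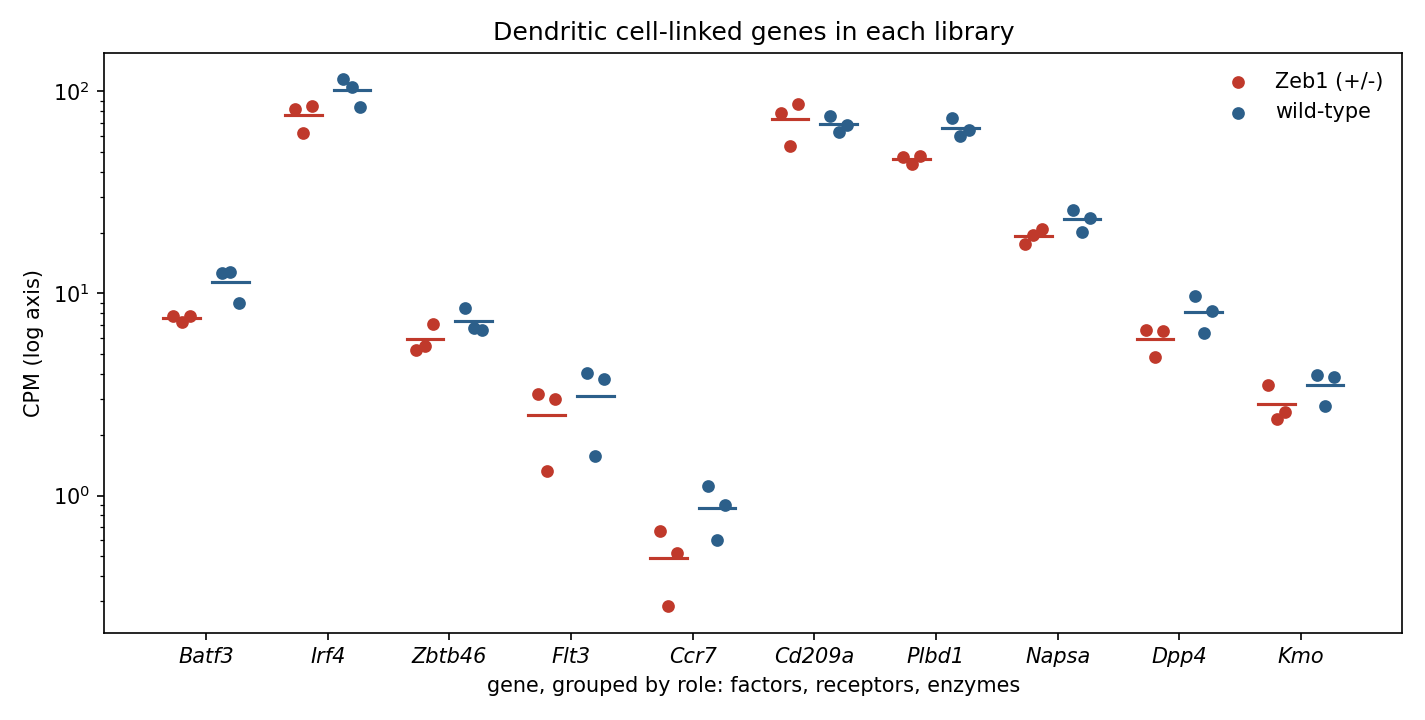
CPM (log axis) of the 10 genes in each library, Zeb1 (+/-) in red to the left of wild-type in blue; each point is 1 library (n = 3 per genotype) and each line is the group mean. Plbd1 and Batf3 have all Zeb1 (+/-) points below all wild-type points, and the other 8 genes overlap.

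The 10 genes covered a wide range of levels, compared here per kilobase of exon (RPKM, which divides the CPM by exon length). Cd209a was highest, at 46.0 ± 10.8 RPKM in Zeb1 (+/-) and 43.6 ± 4.07 RPKM in wild-type libraries (SD, n = 3 each), above 93.6% of all tested genes. Plbd1 followed with 17.6 ± 0.866 and 25.0 ± 2.61 RPKM, and Irf4 with 15.6 ± 2.47 and 20.6 ± 3.17 RPKM. Napsa was at 7.25 ± 0.647 and 8.73 ± 1.08 RPKM and Batf3 at 4.73 ± 0.170 and 7.17 ± 1.34 RPKM. The other 5 had mean levels near or under 1 RPKM: Dpp4 was at 0.946 and 1.28, Zbtb46 at 0.696 and 0.854, Kmo at 0.599 and 0.746, Flt3 at 0.406 and 0.505, and Ccr7 at 0.248 and 0.441 RPKM in Zeb1 (+/-) and wild-type. In that order the intervals of mean ± SD overlapped in both genotypes between Plbd1 and Irf4, Zbtb46 and Kmo, Kmo and Flt3, and Flt3 and Ccr7. They overlapped in wild-type alone between Napsa and Batf3, and in Zeb1 (+/-) alone between Dpp4 and Zbtb46. Irf4, Cd209a and Plbd1 together made up 79.6% to 82.3% of the CPM of the set in Zeb1 (+/-) and 79.5% to 81.7% in wild-type libraries.

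The set was read beside markers that define dendritic cell subsets. Xcr1, the chemokine receptor of type 1 cells, had 0, 0 and 2 counts in the Zeb1 (+/-) and 0, 1 and 1 counts in the wild-type libraries. Clec9a, a type 1 receptor for dead cells, had 36 to 56 counts in Zeb1 (+/-) and 26 to 62 counts in wild-type libraries. Esam, an adhesion molecule of splenic type 2 cells, had 0 to 2 counts in each genotype. Siglech, which marks plasmacytoid cells, had 0 counts in all Zeb1 (+/-) libraries and 0, 0 and 1 in wild-type libraries. Under 1 CPM in all 6 libraries were 5 of 14 listed type 1 genes, 4 of 12 type 2 genes and 4 of 9 plasmacytoid genes. Other genes of the same lists were abundant: Wdfy4 of the type 1 list averaged 176 and 202 CPM, Sirpa, Clec10a and Mgl2 of the type 2 list 357 and 381, 83.5 and 75.7, and 43.7 and 44.3 CPM, and Tcf4 of the plasmacytoid list 61.8 and 69.2 CPM, in Zeb1 (+/-) and wild-type libraries. These abundant genes were named after their values were seen, and macrophages are known to express Sirpa, Clec10a and Mgl2. The lists were thus mixed, with Xcr1, Esam and Siglech at or near 0, and the name dendritic cell-linked describes where the genes are known from, not a cell type shown to be in the sort.

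**Figure D2:**
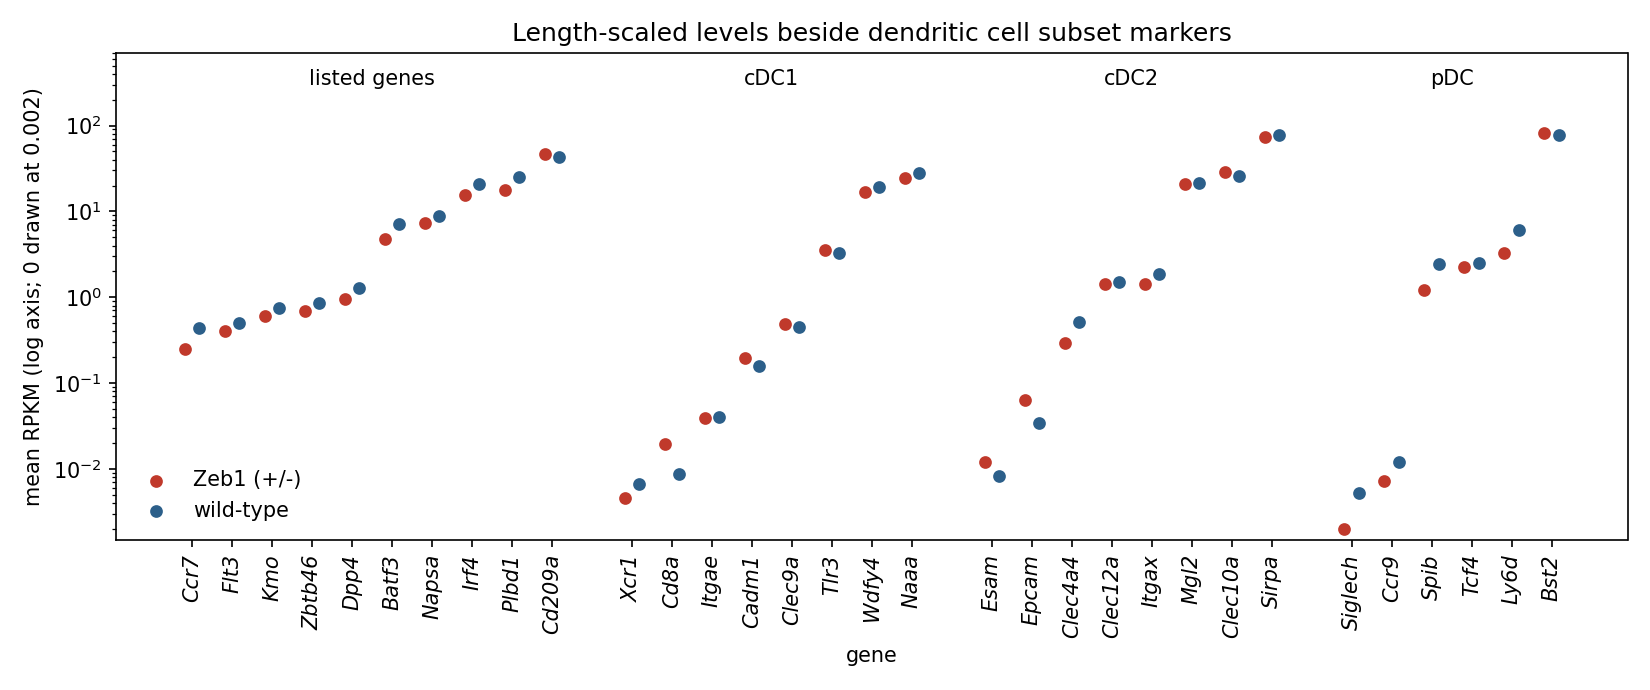
Mean RPKM (log axis, values of 0 drawn at 0.002) of the 10 listed genes and of dendritic cell subset markers. Zeb1 (+/-) is in red left of wild-type in blue (n = 3 each, spread not drawn). The markers, of type 1 (cDC1) and type 2 (cDC2) conventional and of plasmacytoid (pDC) dendritic cells, are a selection from each list. Xcr1, Esam and Siglech lie at the bottom, while Cd209a, Plbd1 and Irf4 lie between 15.6 and 46.0 RPKM.

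Among the transcription factors, Batf3 encodes a basic leucine zipper protein of the AP-1 family (ENSMUSG00000026630.9; chromosome 1, 191097847 to 191108945, plus strand of GRCm38). Batf3 was at 7.70, 7.25 and 7.73 CPM in Zeb1 (+/-) libraries and at 12.6, 12.8 and 8.97 CPM in wild-type libraries. The Zeb1 (+/-) libraries were close together and all below the wild-type ones, of which replicate 3 was the lowest. Batf3 averaged 7.56 ± 0.271 CPM in Zeb1 (+/-) and 11.4 ± 2.15 CPM in wild-type libraries (SD, n = 3 each), with a log2 fold change of −0.61 ± 0.14 (SE; 95% confidence interval −0.93 to −0.29; edgeR adjusted p = 0.102), which did not pass. Without wild-type replicate 3 the Batf3 log2 fold change was −0.75, which passed (edgeR adjusted p = 0.0338). With a term for the structural RNA split it was −0.25 (edgeR adjusted p = 0.696).

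Irf4 encodes an interferon regulatory factor that type 2 dendritic cells, small cavity macrophages and plasma cells use (ENSMUSG00000021356.9; chromosome 13, 30749226 to 30766976, plus strand). Irf4 was at 81.6, 62.5 and 85.0 CPM in Zeb1 (+/-) libraries and at 115, 105 and 84.1 CPM in wild-type libraries. The groups overlapped by a narrow margin, since Zeb1 (+/-) replicate 3 stood just above wild-type replicate 3. Its log2 fold change was −0.41 ± 0.14 (SE; 95% confidence interval −0.72 to −0.10; edgeR adjusted p = 0.229) and did not pass. It was −0.28 without Zeb1 (+/-) replicate 2 and −0.14 with a term for the structural RNA split.

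Zbtb46 encodes a zinc-finger factor that marks the conventional dendritic cell lineage (ENSMUSG00000027583.13; chromosome 2, 181387762 to 181459426, minus strand). Zbtb46 was at 5.25, 5.48 and 7.03 CPM in Zeb1 (+/-) libraries and at 8.47, 6.74 and 6.58 CPM in wild-type libraries. Zeb1 (+/-) replicate 3 lay above wild-type replicates 2 and 3, so the groups overlapped. The log2 fold change was −0.30 ± 0.16 (SE; 95% confidence interval −0.65 to 0.06; edgeR adjusted p = 0.423). It was −0.16 without wild-type replicate 1, −0.15 with a term for the structural RNA split and −0.56 with the B cell genes as a covariate.

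Flt3 encodes the receptor kinase for FLT3 ligand, the growth factor of dendritic cell precursors (ENSMUSG00000042817.15; chromosome 5, 147330741 to 147400489, minus strand). Flt3 was at 3.18, 1.32 and 3.01 CPM in Zeb1 (+/-) libraries, from 57, 56 and 99 counts, and at 4.02, 1.56 and 3.77 CPM in wild-type libraries, from 134, 44 and 71 counts. The lowest library in each genotype was replicate 2, and the spread within genotypes was the widest of the set, with SDs of 41.0% and 43.4% of the mean. The Flt3 log2 fold change of −0.35 ± 0.41 (SE) had a 95% confidence interval from −1.27 to 0.56, which holds a 2-fold decrease as well as no change (edgeR adjusted p = 0.727). It lay between −0.68 and −0.0024 in the fits with 1 library left out, and was −0.64 with a term for the structural RNA split.

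Ccr7 encodes the chemokine receptor that brings mature dendritic cells and naive lymphocytes to lymph nodes (ENSMUSG00000037944.8; chromosome 11, 99144196 to 99155077, minus strand). Ccr7 had 12, 12 and 17 counts in Zeb1 (+/-) libraries and 37, 17 and 17 counts in wild-type libraries, which came to 0.670, 0.283 and 0.518 CPM in Zeb1 (+/-) and to 1.11, 0.603 and 0.903 CPM in wild-type. Zeb1 (+/-) replicate 1 stood above wild-type replicate 2, so the groups overlapped. The Ccr7 log2 fold change was −0.93 ± 0.39 (SE), with a 95% confidence interval from −1.81 to −0.05 and an edgeR adjusted p of 0.321. Without Zeb1 (+/-) replicate 2 it was −0.58 (edgeR adjusted p = 0.741), close to Batf3 at −0.57 in that fit. At this depth the interval covers a range from a 0.286-fold to a 0.966-fold level.

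Cd209a encodes a C-type lectin related to human DC-SIGN and known from monocyte-derived dendritic cells (ENSMUSG00000031494.7; chromosome 8, 3743397 to 3748984, minus strand). Cd209a was at 77.7, 53.8 and 86.9 CPM in Zeb1 (+/-) libraries and at 75.7, 62.8 and 68.4 CPM in wild-type libraries. The Zeb1 (+/-) libraries held both the highest and the lowest value of the 6. The log2 fold change was 0.07 ± 0.16 (SE; 95% confidence interval −0.28 to 0.43; edgeR adjusted p = 0.856), and a 2-fold change in either direction lay outside the interval. None of its 50-base stretches occurred in transcripts of other genes.

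Of the 4 enzymes, Plbd1 encodes a phospholipase B-like protein of lysosomes and granules (ENSMUSG00000030214.6; chromosome 6, 136612070 to 136661928, minus strand). Plbd1 was at 47.3, 43.8 and 48.1 CPM in Zeb1 (+/-) libraries and at 73.4, 60.0 and 64.1 CPM in wild-type libraries. All Zeb1 (+/-) libraries were below all wild-type libraries, and each group was tight. Plbd1 averaged 46.4 ± 2.28 CPM in Zeb1 (+/-) and 65.9 ± 6.87 CPM in wild-type libraries (SD, n = 3 each), and Plbd1 fell by 0.51 ± 0.09 on the log2 scale (SE; 95% confidence interval −0.70 to −0.31; edgeR adjusted p = 0.0465), a 0.703-fold level. The call stood close to the threshold and was lost without any 1 of the 6 libraries. Its edgeR adjusted p was 0.103, 0.227 and 0.0517 without Zeb1 (+/-) replicates 1, 2 and 3, and 0.0597, 0.104 and 0.0790 without wild-type replicates 1, 2 and 3. The log2 fold change of Plbd1 stayed between −0.57 and −0.42 in these fits, and was −0.47 with a term for the structural RNA split (edgeR adjusted p = 0.292).

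Sequence before a RefSeq start is shown for Plbd1, the gene that fell, for Zbtb46, the other gene with the E-box, and for Irf4, as an abundant factor without it. The E-box that ZEB1 is known to bind, CACCTG (read as CAGGTG on the other strand), was searched on both strands in the RefSeq windows of GRCm38.p6 from 250 bases before to 50 after a start. Of the 10 genes 8 had a window, 2 of the 8 windows held the motif, and 20.2% of all 32851 windows did. The stretches below run 5′ to 3′ along the strand of each gene, with the E-box in capitals, and hold no annotated exon base. The one of Plbd1 covers chr6:136661929-136662028 on the minus strand, with the first base of the E-box at −42 from the RefSeq start. The one of Zbtb46 covers chr2:181424539-181424638 on the minus strand, with that base at −238. The RefSeq start used for Zbtb46 is an internal one, so its stretch lies inside the gene, far from the 5′ end given above, and the windows of Batf3 and Kmo also lie inside those genes. The one of Irf4 covers chr13:30749126-30749225 on the plus strand.
Plbd1: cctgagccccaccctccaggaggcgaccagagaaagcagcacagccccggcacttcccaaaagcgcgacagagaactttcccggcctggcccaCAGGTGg
Zbtb46: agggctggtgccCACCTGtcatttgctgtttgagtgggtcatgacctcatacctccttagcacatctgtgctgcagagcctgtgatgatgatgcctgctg
Irf4: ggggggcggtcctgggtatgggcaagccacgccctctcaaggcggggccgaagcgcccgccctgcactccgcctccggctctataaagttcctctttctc
A match is a description of the letters and no measure of binding.

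Napsa encodes the aspartic protease napsin A (ENSMUSG00000002204.9; chromosome 7, 44572380 to 44586862, plus strand). Napsa was at 17.5, 19.5 and 20.9 CPM in Zeb1 (+/-) libraries and at 25.8, 20.2 and 23.7 CPM in wild-type libraries. Only wild-type replicate 2 lay within the Zeb1 (+/-) range. The log2 fold change was −0.26 ± 0.11 (SE; 95% confidence interval −0.50 to −0.02; edgeR adjusted p = 0.308), and −0.17 without wild-type replicate 1. The antisense gene Gm15396 shares 502 exon bases with Napsa on the other strand, and the strand setting of the counting is not given in the sources used here.

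Dpp4 encodes the surface exopeptidase CD26, found on type 1 dendritic cells and T cells (ENSMUSG00000035000.8; chromosome 2, 62330073 to 62412231, minus strand). Dpp4 was at 6.59, 4.84 and 6.51 CPM in Zeb1 (+/-) libraries and at 9.67, 6.35 and 8.18 CPM in wild-type libraries. Wild-type replicate 2 lay within the Zeb1 (+/-) range. The log2 fold change was −0.45 ± 0.18 (SE; 95% confidence interval −0.86 to −0.03; edgeR adjusted p = 0.315). It was −0.30 when Zeb1 (+/-) replicate 2 was left out, and −0.28 without wild-type replicate 1. The antisense gene Gm13561 shares 232 of its exon bases.

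Kmo encodes kynurenine 3-monooxygenase, a mitochondrial enzyme of tryptophan breakdown (ENSMUSG00000039783.15; chromosome 1, 175620381 to 175662116, plus strand). Kmo was at 3.52, 2.39 and 2.59 CPM in Zeb1 (+/-) libraries and at 3.93, 2.77 and 3.88 CPM in wild-type libraries. Zeb1 (+/-) replicate 1 stood above wild-type replicate 2. The Kmo log2 fold change was −0.34 ± 0.21 (SE; 95% confidence interval −0.82 to 0.14; edgeR adjusted p = 0.494), and it was −0.22 without Zeb1 (+/-) replicate 2.

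**Figure D3:**
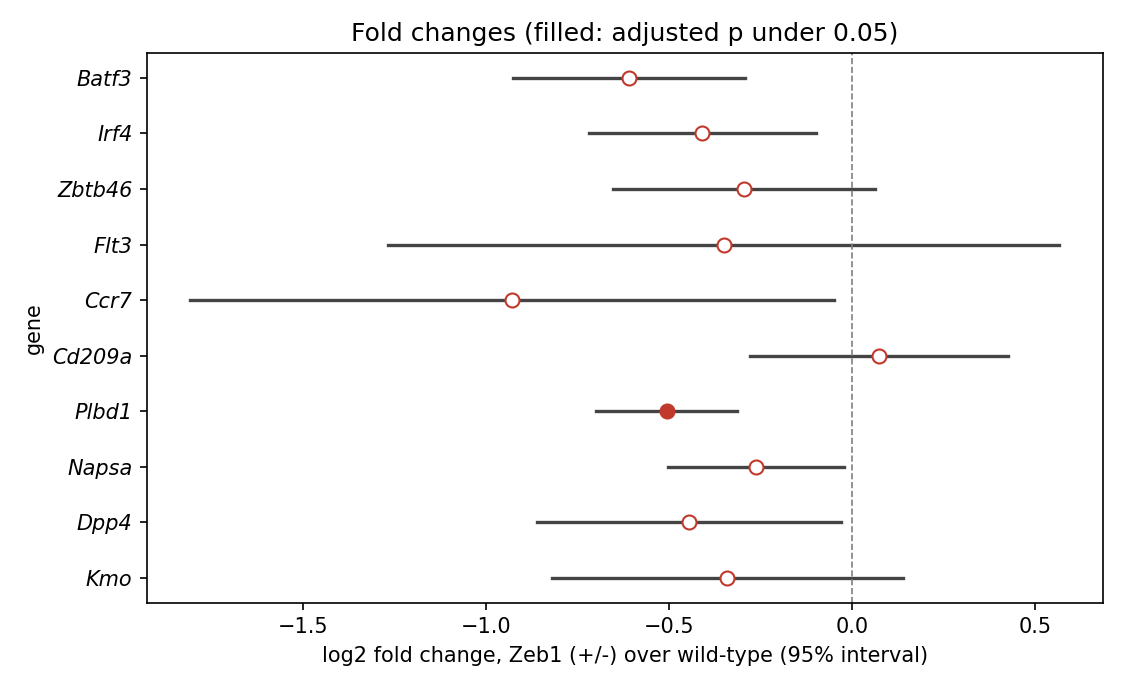
Log2 fold change, Zeb1 (+/-) over wild-type, of the 10 genes with 95% confidence intervals from the edgeR fit of 3 against 3 libraries; a filled point has an adjusted p under 0.05. Plbd1, at −0.51, is the filled one, Cd209a, at 0.07, is the one above 0, and Flt3 and Ccr7 have the widest intervals.

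The libraries were not alike across the set. Wild-type replicate 1 was the highest of the 6 libraries for 8 of the 10 genes and for 14.4% of all tested genes. Zeb1 (+/-) replicate 2 was the lowest of the 6 for 8 of the 10 genes, all but Zbtb46 and Napsa, and for 16.7% of all tested genes. Replicate 2 was the lowest library in both genotypes for 6 genes, Flt3, Ccr7, Cd209a, Plbd1, Dpp4 and Kmo, and for 7.19% of all tested genes. These counts were taken after the values had been seen. The sample titles number both genotypes as Set 1 to Set 3, and the labels do not say whether these numbers pair the samples. Without wild-type replicate 1 the median log2 fold change of the set was −0.26, and without Zeb1 (+/-) replicate 2 it was −0.27. Within the libraries of high structural RNA, wild-type replicate 3 lay above all 3 Zeb1 (+/-) libraries for 7 of the 10 genes, all but Irf4, Zbtb46 and Cd209a, and below all 3 for none. Over all tested genes it lay above in 28.8% and below in 29.1%.

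**Figure D4:**
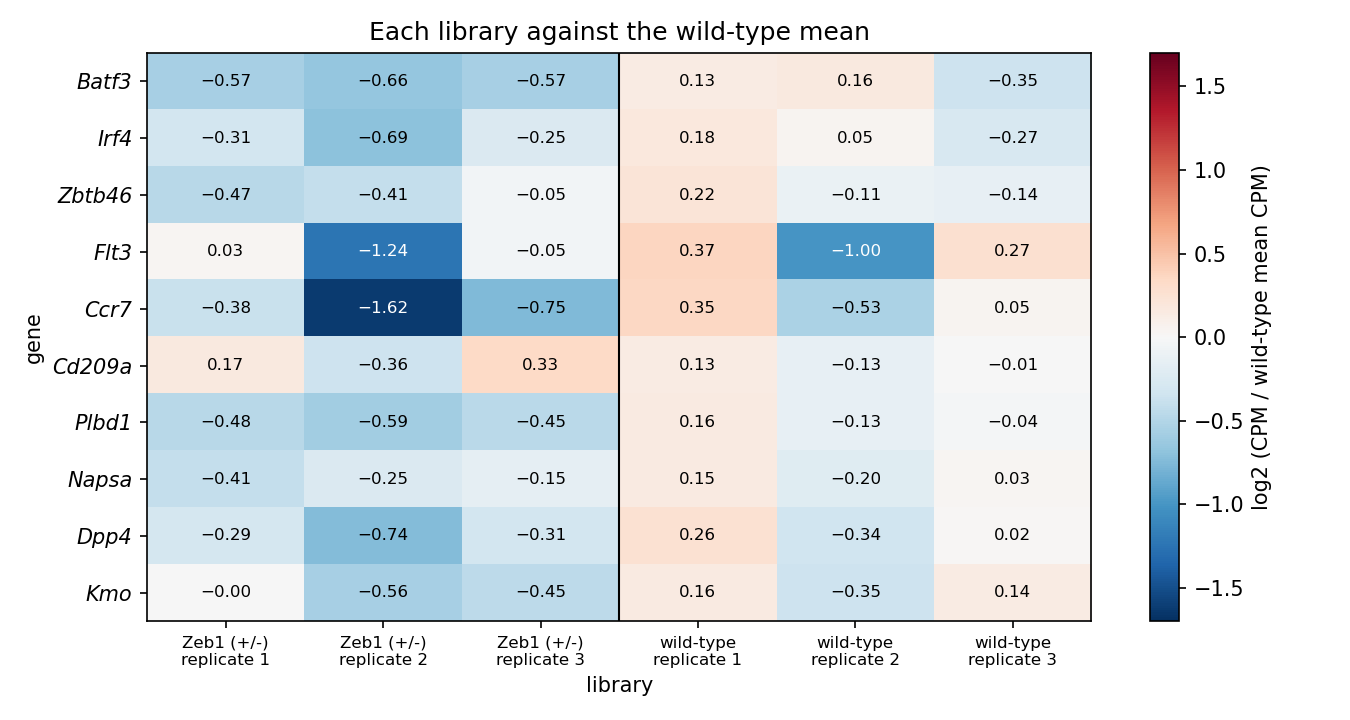
Log2 ratio of the CPM in each library to the wild-type mean, for the 10 genes (down) and the 6 libraries (across, Zeb1 (+/-) left of the line); blue is below and red above the wild-type mean. Zeb1 (+/-) replicate 2 holds the lowest values, −1.62 for Ccr7 and −1.24 for Flt3.

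Markers of lymphocytes stood beside these differences. Of 15 tested B cell genes 14 had a log2 fold change below 0 and 13 had every Zeb1 (+/-) library below every wild-type one, with a median of −0.95, though none passed the test (smallest edgeR adjusted p, Blk, a kinase of the B cell receptor pathway, 0.0895). The 16 listed B cell genes summed to 171 to 204 CPM in Zeb1 (+/-) and 226.5 to 403 CPM in wild-type libraries, with the highest sum in wild-type replicate 3. Bank1, a B cell scaffold gene, averaged 76.2 and 73.9 CPM of these sums, and without it they ran from 96.7 to 130.1 CPM in Zeb1 (+/-) and from 159 to 320.3 CPM in wild-type libraries (means 113.8 ± 16.7 and 218.7 ± 88.5 CPM, SD, n = 3 each). B cells are known to express Ccr7 and Irf4. Wild-type replicate 3, with the highest B cell sum, had 84.1 CPM of Irf4, against 115 and 105 CPM in wild-type replicates 1 and 2. Its Ccr7 was at 0.903 CPM, against 1.11 and 0.603 CPM in those replicates. With the mean of the B cell genes as a covariate the log2 fold changes were −0.85 for Ccr7, −0.76 for Irf4, −1.02 for Batf3 and −0.55 for Plbd1, and none of the 10 genes passed. In that fit Flt3 was at −0.01 and Kmo at −0.07. The covariate itself separated the genotypes, at 2.02 to 2.36 log2 CPM in Zeb1 (+/-) and 2.70 to 3.62 log2 CPM in wild-type libraries. The fit therefore had little to tell the covariate from genotype, and the SE of Ccr7 was 0.65, against 0.39 without it. What share of any difference comes from B cells was not tested. T and NK cell genes summed to 12.0 to 14.2 CPM in Zeb1 (+/-) and 17.8 to 22.3 CPM in wild-type libraries. Most of each sum came from Cd2 alone, at 9.77 to 11.1 CPM in Zeb1 (+/-) and 15.4 to 17.5 CPM in wild-type libraries. Cd2, an adhesion molecule of lymphocytes, fell (log2 fold change −0.63, edgeR adjusted p = 0.0246, but 0.215 with the structural RNA term, and 0.161 once adjusted for the B cell mean), 1 of 5 tested T and NK genes, with a median of −0.36. Under 1 CPM in all 6 libraries were 11 of the 13 listed T and NK genes. The T cell receptor complex gene Cd3e had 4 to 6 counts in each genotype, and the part of T and NK cells in the result was not tested.

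**Figure D5:**
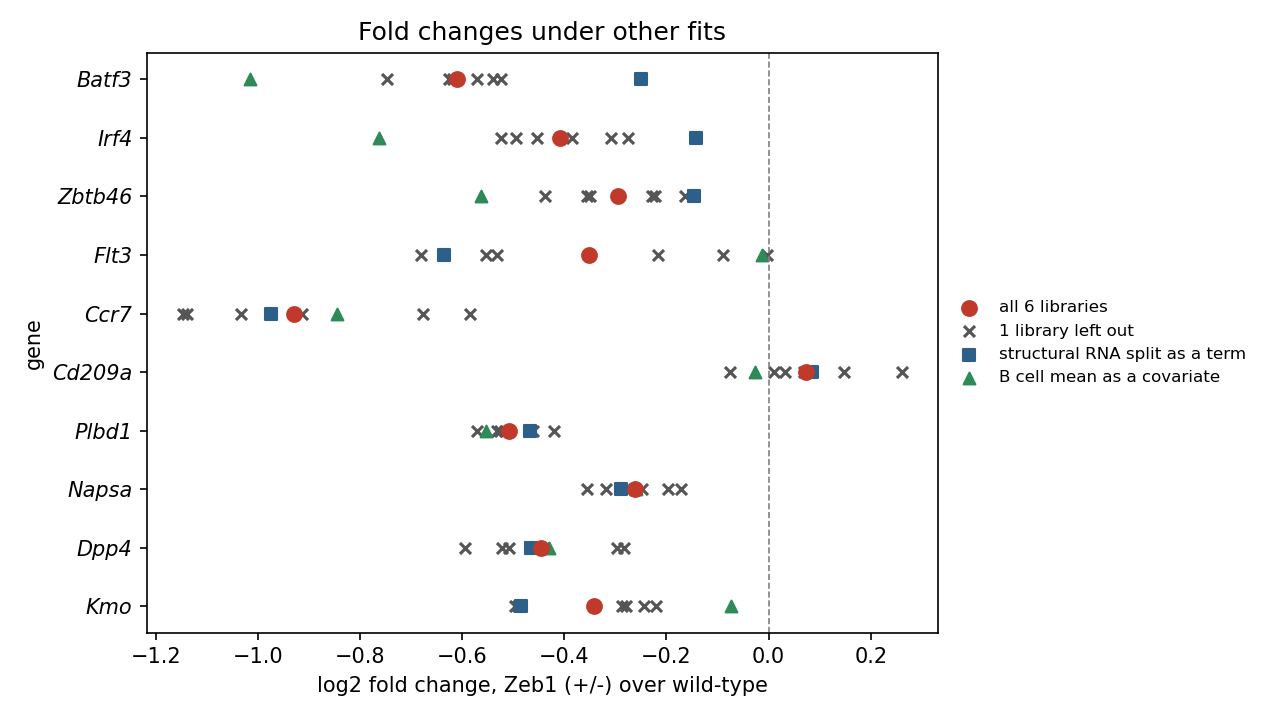
Log2 fold change, Zeb1 (+/-) over wild-type, of the 10 genes in the edgeR fit of all 6 libraries (circles), in the 6 fits with 1 library left out (crosses), with a term for the structural RNA split (squares) and adjusted for the B cell mean (triangles). Values of 9 genes stay below 0 in all fits drawn, Plbd1 stays between −0.57 and −0.42, and Cd209a crosses 0.

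Partners of the transcription factors were read next. Of 16 tested dendritic cell transcription factors none changed and the median was −0.12, with 15 below 0. The smallest p was that of Nfil3, which acts early in type 1 cell development, with a log2 fold change of 0.40 (edgeR adjusted p = 0.134). Of 14 tested BATF and IRF family genes none changed, 13 were below 0 and the median was −0.16. Junb, a partner of BATF proteins, came closest, at −0.47 (edgeR adjusted p = 0.0988). Batf, a paralogue of Batf3, was at −0.05 and Irf8, the factor of type 1 and plasmacytoid cells, at −0.36 (edgeR adjusted p of 0.867 and 0.234).

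No listed marker of the 3 subsets passed the test. None of 9 tested type 1 genes changed (median 0.03, 4 below 0), and Cd24a, a surface glycoprotein, was closest, at 0.82 (edgeR adjusted p = 0.0988). None of 9 tested type 2 genes changed (median −0.20, 8 below 0), with the smallest p for the membrane protein gene Tmem176a, at −0.27 (edgeR adjusted p = 0.280). Of 5 tested plasmacytoid genes none changed (median −0.84), with the smallest p for the factor Runx2, also at −0.84 (edgeR adjusted p = 0.165). The list was split: Spib and Ly6d were at −0.97 and −0.91, but Bst2 and Tcf4 at 0.06 and −0.17. Spib and Ly6d were highest in wild-type replicate 3, at 10.8 and 6.58 CPM, the library with the highest B cell sum. Runx2 was at 1.17 CPM in that library, below the 1.56 and 1.35 CPM of wild-type replicates 1 and 2. All 3 of these genes had every Zeb1 (+/-) library below every wild-type one. What share of these differences comes from B cells was not tested. Of 11 tested genes of the mature dendritic cell programme, which Ccr7 belongs to, Marcksl1 fell by 0.79 on the log2 scale (edgeR adjusted p = 0.0186, but 0.144 with the structural RNA term and 0.102 with the B cell mean) and the other 10 did not pass, with a median of −0.05. Marcksl1, which encodes an actin-binding protein, was at means of 34.6 and 60.0 CPM in Zeb1 (+/-) and wild-type libraries. The cytokine subunit gene Il12b and the chemokine gene Ccl22 of that programme had at most 2 and 9 counts in any library.

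Ligands and relatives of the receptors gave 1 change. Of 8 tested genes around FLT3 none changed (median −0.14), and Csf2ra, a subunit of the GM-CSF receptor, was closest, at −0.24 (edgeR adjusted p = 0.161). Flt3l, the FLT3 ligand, was at −0.12. The CCR7 ligands Ccl19 and Ccl21a had 0 counts in all 6 libraries. Of 4 tested genes of that list Cxcr5, which guides B cells into follicles, fell by 0.88 on the log2 scale (edgeR adjusted p = 0.0483, but 0.205 with the structural RNA term and 0.260 with the B cell mean), with a median of −0.21. Cxcr5 shares 1.86% of its 50-base stretches with Bcl9l on the other strand. Of 7 tested genes of the CD209 family and its neighbours none changed (median −0.62, 5 below 0), and Cd209f, a lectin gene of the family, was at −1.66 (edgeR adjusted p = 0.0522).

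Around the enzymes, Tdo2, which starts tryptophan breakdown, rose by 1.74 on the log2 scale (edgeR adjusted p = 0.0246), to means of 3.44 CPM in Zeb1 (+/-), against 1.03 CPM in wild-type libraries. The Tdo2 call was lost in both adjusted fits (edgeR adjusted p of 0.151 with the structural RNA term, 0.227 with the B cell mean). It was the 1 of 10 tested kynurenine pathway genes to pass, with a median of 0.07. Of 8 tested relatives of Dpp4 none changed (median 0.02), with the smallest p for the carboxypeptidase gene Prcp, at −0.12 (edgeR adjusted p = 0.377). Of 6 tested aspartic protease genes, counted together with Plbd2, none changed (median 0.02), with the smallest p for the cathepsin gene Ctse, at 0.72 (edgeR adjusted p = 0.153). Plbd2, the paralogue of Plbd1, was at −0.03 (edgeR adjusted p = 0.873).

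The cavity populations were described by the same fit. Of 10 tested small cavity macrophage genes 5 fell, Ccr2, Mrc1, Retnla, Folr2 and Fcrls, and none rose, with a median of −0.64 and log2 fold changes of the 5 from −1.19 (Folr2) to −0.61 (Retnla). With the B cell mean as covariate none of the 5 passed (edgeR adjusted p of 0.0904 for Ccr2, 0.0948 for Mrc1, 0.15 for Retnla, 0.227 for Folr2 and 0.0675 for Fcrls). With the structural RNA term Mrc1 and Folr2 passed (both 0.0142), while Ccr2, Retnla and Fcrls did not (0.0690, 0.0663 and 0.0501). That list was known from these data to hold genes that fell, so its count is not independent evidence. In that list 7 of 10 genes, against 10.3% of all tested genes, had every Zeb1 (+/-) library below every wild-type one. This count has the same limit. Cd163 and Cd226 were among the 7 but did not pass, at −1.23 and −0.68 (edgeR adjusted p of 0.0988 and 0.101). Clec10a, a lectin gene and the 1 of that list above 0, was at 0.14. Cd209a, a lectin known from the same cells, was at 0.07, and both had groups that overlapped. Of 9 tested monocyte genes Ccr2 fell, and the median was 0.05. None of 10 core macrophage genes passed the test (median 0.03), with the smallest p for Adgre1, at 0.26 (edgeR adjusted p = 0.111). Adgre1 and Gata6, the latter at 0.31 (edgeR adjusted p = 0.115), had every Zeb1 (+/-) library above every wild-type one. Csf1r had every Zeb1 (+/-) library below. Over all tested genes the shares were 9.6% above and 10.3% below. None of 3 tested neutrophil genes changed (median 0.05), with the smallest p for the collagenase gene Mmp8, at 0.65 (edgeR adjusted p = 0.390). Of the mesothelial and fibroblast list, where 9 of 10 genes were under 1 CPM in all libraries, Pi16, a secreted peptidase inhibitor, was the 1 tested and rose by 0.74 on the log2 scale (edgeR adjusted p = 0.0465, but 0.120 with the structural RNA term and 0.255 with the B cell mean). With 1 library left out, Mrc1 kept its call in 6 of 6 fits, Fcrls in 5, Ccr2, Retnla and Marcksl1 in 4, Folr2 in 3, Tdo2 and Cd2 in 2, Pi16 in 1 and Cxcr5 in 0. Without wild-type replicate 2 all of these but Mrc1 were lost, without Zeb1 (+/-) replicate 2 all but Mrc1 and Fcrls, and adjusted p lay between 0.00332 and 0.234 across them.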

How the data were processed

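Messenger RNA was sequenced from sorted peritoneal macrophages in 6 libraries, made with a stranded TruSeq kit per the labels' protocols. The authors' deposited values are estimated counts for each gene. They used STAR, RSEM and edgeR on build GRCm38, per the submitters' processing notes, with no versions given. Values were whole numbers, so RSEM's expected counts appear to have been rounded before deposit. Annotation release and strand setting are not given in the sources used here.

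Columns were mapped by the identifier in each sample's description (0 unmapped). Coordinates and exon lengths came from GENCODE M21 (GRCm38), which matched 99.3% of gene identifiers without version. In R 4.3.3 with edgeR 4.0.16, filterByExpr (minimum count 10, minimum total 15) kept 12940 genes, TMM factors were 0.976 to 1.01, and the quasi-likelihood test used genotype alone, with Benjamini-Hochberg adjustment over all tested genes. SE was the log2 fold change divided by the square root of F. The fit was tested on simulated data. Alternatives were RLE factors, other filters, the replicate number as a block, DESeq2 1.42.0, limma 3.58.1 (voom), robust moderation, a threshold of 0.1, each library left out, the structural RNA split and the B cell mean.

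The 10 genes and 19 further lists were chosen with earlier results of these data known. All 10 are named, with list genes past the threshold or, failing any, the smallest p; others are named as examples. The labels do not say that the replicate numbers pair the samples, and the main fit used no pairing. Libraries are pools of 2 mice, so p-values measure the spread between pools. Within a genotype every pair of libraries differed by more than counting noise (chi-square per degree of freedom 14.4 to 28.1).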

Additional observations from a re-analysis of the deposited data

How the results depend on the processing

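With 1 library left out, 0 to 1 of the 10 genes were lower and 5 to 127 of all genes changed, against 1 and 76 with all libraries. The 1 gene lower without wild-type replicate 3 was Batf3, not Plbd1. Lower among the 10 and changed among all genes were 3 and 522 with no low-count filter, 2 and 351 by DESeq2, 0 and 31 with the structural RNA split and 0 and 4 with the B cell mean. At an adjusted p under 0.1, 214 genes changed. None of the 10 was higher in any of these fits. No low-count filter added Batf3 and Irf4, and DESeq2 added Batf3. Cd209a was at −0.027 with the B cell mean, and at −0.0757 (without Zeb1 (+/-) replicate 3) to 0.261 with 1 library left out, and the other 9 kept their direction in every fit. The cause was not tested. Same-numbered libraries had deviations from their group means that correlated at −0.25, −0.035 and −0.174. With so few libraries these values cannot show whether same-numbered libraries were handled together. With a replicate block 0 of the 10 and 15 of all genes passed. Median log2 fold changes of the set ran from −0.51 to −0.26. Ccr7, at 12 to 37 counts a library, and Flt3 are limited by depth and spread.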

Other observations

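Within the CD209 family the genes did not move as one, an observation made after their values were seen. Cd209f was at 2.57, 1.89 and 4.35 CPM in Zeb1 (+/-) libraries and at 9.91, 6.78 and 11.2 CPM in wild-type libraries, a log2 fold change of −1.66 ± 0.30 (SE; edgeR adjusted p = 0.0522). Cd209g was at −1.30 (edgeR adjusted p = 0.0849), and its groups did not overlap either. Cd209f shares 29.8% and Cd209g 16.6% of its 50-base stretches with the other, so their counts may be split between them. Cd209d had groups that did not overlap, at −0.62 (edgeR adjusted p = 0.255). Cd209a and Cd209b, the abundant members, were at 0.07 and 0.04 with groups that overlapped. Clec4g, a lectin gene listed with the family, was higher in every Zeb1 (+/-) library than in any wild-type one, at 0.80 (edgeR adjusted p = 0.101). None of these passed the threshold, and the differences between the genes were not tested.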
